A study of Mus musculus with 9 samples.

Results

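The nuclear-encoded subunits of respiratory complexes II, III and IV, of cytochrome c and of the ATP synthase (complex V) were examined in mouse duodenum. Members were the protein-coding rows of the gene count table whose symbols begin with Uqcr, Cox4 to Cox8 or Atp5, together with Sdha to Sdhd, Cyc1 and Cycs. This gave 50 rows with 49 symbols out of 54532 rows: 4 for complex II, 9 for complex III, 1 for cytochrome c, 18 for complex IV and 18 for complex V. Gene expression had been measured by RNA sequencing of polyadenylated RNA from the duodenum of male C57BL/6 mice fed regular chow for 3 months, in 4 wild-type (WT) controls of matched age and in 5 Pla2g12b mutants. A dominant negative substitution, C129Y, is named in the series title, while the labels of the animals say only that they are Pla2g12b mutants. PLA2G12B belongs to the secreted phospholipases A2 but has no catalytic activity, and it is needed to load lipid onto lipoproteins in the intestine and liver.

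Complex II, succinate dehydrogenase, passes electrons from the citric acid cycle to ubiquinone. Complex III hands them to cytochrome c, a small soluble carrier, and complex IV, cytochrome c oxidase, reduces oxygen with them. Complexes III and IV pump protons, and complex V makes ATP from the gradient. All subunits of complex II and cytochrome c are encoded in the nucleus, whereas complexes III, IV and V also contain subunits encoded in mitochondrial DNA, and several subunits of complex IV and the c subunit of complex V have alternative nuclear genes. In the small intestine the absorptive enterocyte, which takes up nutrients and assembles lipoproteins, is rich in mitochondria.

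Each WT library held 16119639 to 24009157 counted reads and each mutant library 16245982 to 17959658. Pla2g12b itself was read 1256 to 2531 times per WT library and 1810 to 2294 times per mutant library. As CPM (reads scaled to a common library size) it was at 75.6 to 104 in WT and 102 to 134 in mutants. Its log2 fold change, mutant over WT, was 0.42 (SE 0.13, adjusted p = 0.023 in edgeR's quasi-likelihood test). In 4 pairs of libraries (WT 1 and 2, WT 3 and 4, mutants 2 and 3, mutants 4 and 5) the counts lay much nearer each other than in other pairs of the same genotype. The biological coefficient of variation was 0.0369 to 0.0498 within these pairs and 0.171 to 0.24 otherwise, and mutant 1 stood apart. The labels number them as separate mice, so all 9 libraries were compared, and counts of calls are also given with each close pair summed into 1 unit. Of 17 pancreatic acinar markers, 16 were tested and all were lower in mutants, and together they took 3.67% to 7.63% of WT reads but 0.0013% to 0.002% of mutant reads. These samples are whole tissue, in which more cells of a type and more RNA per cell cannot be told apart.

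Transcripts of the subunits were more abundant in mutant duodenum in every complex. Of the 50 rows, 48 had reads and 45 passed the filter on low counts. Of these, 41 were higher in mutants at an adjusted p under 0.05 in edgeR's quasi-likelihood test and none was lower, where 15.4% of all 15416 tested genes were higher and 17.1% were lower. The median log2 fold change, mutant over WT, was 0.61 over the 45 subunits and 0.01 over all tested genes. The called subunits rose between 1.18-fold and 2.15-fold, apart from Cox6a2, which rested on few reads. Cox6a2 passed the filter only through its mutant reads, and without it 40 of 44 were called, with a median of 0.60. Every mutant library lay above every WT library for 42 of the 45, Cox6a2 among them. This held for 14.4% of all tested genes, with 16.5% the other way. With close pairs summed, 23 subunits (22 without Cox6a2) were still called higher, all of them among the 41, where 2.23% of 17295 genes were called higher and 6.78% lower. The 4 subunits without a call were Uqcrc1, Atp5b, Atp5s and Cox6b2. Libraries do not mark strand, and 13 of the subunits overlap a gene with reads on the opposite strand, such as Atp5j with Gabpa (24688 and 7101 reads) and Cox6c with Vps13b (46049 and 6490 reads). Members together took 1.32% to 1.53% of WT reads and 1.80% to 2.04% of mutant reads.

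**Figure D1:**
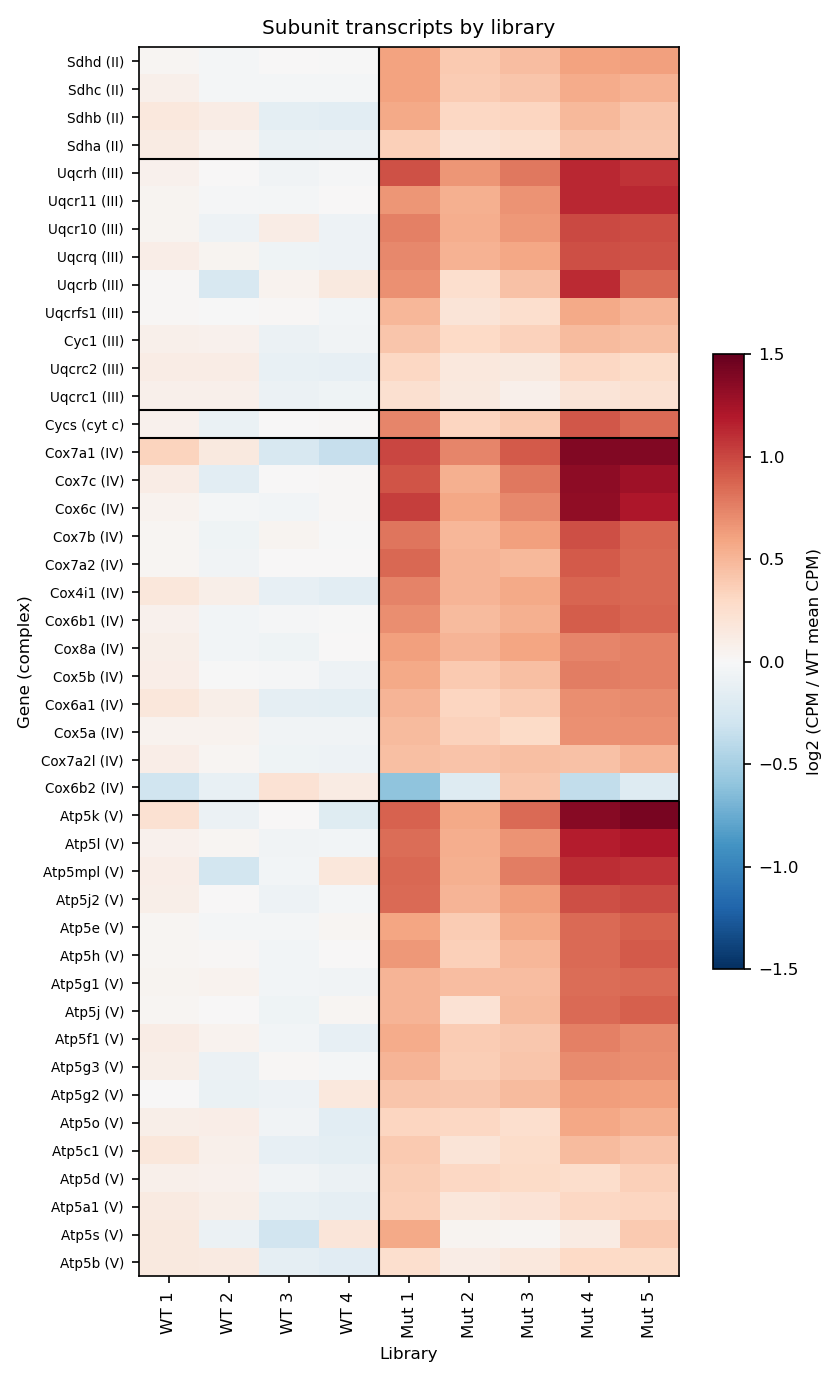
Level of each tested subunit above 1 CPM (reads scaled to a common library size) in each of the 9 libraries, as log2 of the CPM over the mean of the 4 WT libraries, grouped by complex and ordered by log2 fold change. Nearly all rows are darker in the 5 mutant columns, and mutants 4 and 5 carry the darkest cells, as in Cox7a1, Cox7c, Cox6c and Atp5k.

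Promoters of the subunits with the largest change in each complex among those with an entry, and of Uqcrc1 and Atp5b, which changed least in complexes III and V and were not called, are shown because the members moved together. Each sequence runs from 250 bases before to 50 bases after a gene start in RefSeq (GRCm38.p6), on the strand of the gene. Of 49 symbols, 37 had an entry, with 40 promoters in all. Capitals mark matches, on either strand, to 5 short motifs named for factors known to act on respiratory genes: CCGGAAG for the ETS family including GABPA, GCGCATGC for NRF1, CAAGGTCA for the estrogen-related receptors, AAGATGGC for YY1 and GGGCGG for SP1.
Sdhd, chr9:50603800-50604099, minus strand: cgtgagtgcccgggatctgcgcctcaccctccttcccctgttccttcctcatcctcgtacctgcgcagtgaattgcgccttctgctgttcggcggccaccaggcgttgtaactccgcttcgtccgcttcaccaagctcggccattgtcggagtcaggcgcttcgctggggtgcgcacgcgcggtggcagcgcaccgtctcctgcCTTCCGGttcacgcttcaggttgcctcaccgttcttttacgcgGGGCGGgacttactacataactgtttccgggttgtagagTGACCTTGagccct
Uqcrh, chr4:116075021-116075320, minus strand: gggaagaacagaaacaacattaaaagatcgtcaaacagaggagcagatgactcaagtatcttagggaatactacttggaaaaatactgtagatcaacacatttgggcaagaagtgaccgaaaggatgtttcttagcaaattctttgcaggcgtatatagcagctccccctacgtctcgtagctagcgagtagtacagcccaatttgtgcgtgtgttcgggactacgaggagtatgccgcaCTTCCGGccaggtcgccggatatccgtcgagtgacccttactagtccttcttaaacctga
Uqcrc1, chr9:108936398-108936697, plus strand: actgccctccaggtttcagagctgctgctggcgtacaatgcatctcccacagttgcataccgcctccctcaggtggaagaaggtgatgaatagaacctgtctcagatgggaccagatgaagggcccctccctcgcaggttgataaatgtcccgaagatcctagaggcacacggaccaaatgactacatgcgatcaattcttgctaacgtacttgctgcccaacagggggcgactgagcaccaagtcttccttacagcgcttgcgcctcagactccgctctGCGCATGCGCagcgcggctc
Cycs, chr6:50566520-50566819, minus strand: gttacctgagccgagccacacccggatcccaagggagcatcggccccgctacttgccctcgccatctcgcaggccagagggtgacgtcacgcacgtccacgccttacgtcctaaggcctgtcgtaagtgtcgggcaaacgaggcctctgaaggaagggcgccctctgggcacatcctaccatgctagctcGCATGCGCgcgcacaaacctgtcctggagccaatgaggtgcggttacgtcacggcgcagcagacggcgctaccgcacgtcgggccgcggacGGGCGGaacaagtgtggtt
Cox7a1, chr7:30183921-30184220, plus strand: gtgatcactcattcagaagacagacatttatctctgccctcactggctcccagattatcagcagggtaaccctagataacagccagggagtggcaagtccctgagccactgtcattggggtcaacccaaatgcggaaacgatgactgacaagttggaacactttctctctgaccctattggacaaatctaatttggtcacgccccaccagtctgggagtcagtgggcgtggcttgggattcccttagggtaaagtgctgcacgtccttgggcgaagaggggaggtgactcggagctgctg
Atp5k, chr5:108434350-108434649, minus strand: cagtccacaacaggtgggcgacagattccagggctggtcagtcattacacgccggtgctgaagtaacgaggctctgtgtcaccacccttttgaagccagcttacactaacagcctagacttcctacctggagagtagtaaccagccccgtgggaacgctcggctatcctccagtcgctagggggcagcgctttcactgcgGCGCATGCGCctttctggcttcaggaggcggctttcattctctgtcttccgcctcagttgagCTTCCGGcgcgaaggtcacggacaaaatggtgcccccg
Atp5b, chr10:128083057-128083356, plus strand: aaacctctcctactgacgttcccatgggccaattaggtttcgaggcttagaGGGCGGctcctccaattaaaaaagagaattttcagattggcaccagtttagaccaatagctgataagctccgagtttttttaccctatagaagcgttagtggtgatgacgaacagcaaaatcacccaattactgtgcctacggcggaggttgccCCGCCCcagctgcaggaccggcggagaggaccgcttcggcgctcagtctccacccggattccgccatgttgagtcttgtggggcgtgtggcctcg
The Sdhd promoter held an ETS match, an SP1 match and a match for the estrogen-related receptors, and that of Uqcrh held an ETS match. The Atp5k promoter held an ETS match and the NRF1 palindrome, whose strands overlap, and Uqcrc1, which was not called, held the same palindrome. Cycs held an NRF1 and an SP1 match, Atp5b held SP1 matches at 2 places, and none of the 5 motifs was found in this window of Cox7a1. Over the 40 subunit promoters, the ETS motif was found in 12 (30%), against 15.9% of the promoters of tested genes and 8.86% of all 32851 promoters. The NRF1 motif was found in 8 (20%), against 4.68% and 2.71%. The motif of the estrogen-related receptors was found in 3 (7.5%), against 1.09% and 1.56%, and the YY1 motif in 3 (7.5%), against 4.01% and 2.75%. The SP1 motif was found in 15 (37.5%), against 59.3% and 35.7%. A match describes the letters in the window and is not a site of binding.

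All 4 subunits of complex II rose, with a median log2 fold change of 0.46. Sdha, the flavoprotein that oxidises succinate (chromosome 13, 74322254 to 74350280), was at 572, 546, 491 and 497 CPM in WT 1 to 4 and at 676, 611, 625, 703 and 697 CPM in mutants 1 to 5. Sdhb, the iron-sulfur subunit, was at 353, 342, 285 and 284 CPM in WT and at 470, 392, 396, 441 and 422 CPM in mutants. In both genes of the catalytic head WT 3 and 4 were the lowest libraries, and the groups did not overlap. Sdha rose by 0.33 on the log2 scale (SE 0.08, adjusted p = 0.00819) and Sdhb by 0.42 (SE 0.09, adjusted p = 0.00455), from 316 ± 36.6 CPM (SD, n = 4) to 424 ± 32.5 CPM (SD, n = 5). Sdhc, which with Sdhd anchors the complex in the membrane, was at 253, 235, 235 and 235 CPM in WT and at 364, 312, 318, 352 and 343 CPM in mutants. Sdhd, whose promoter is printed above, was at 403, 389, 398 and 393 CPM in WT and at 599, 520, 545, 601 and 604 CPM in mutants. The WT libraries were nearly level for both anchors, apart from WT 1 for Sdhc, and all mutants stood above them. Sdhc rose by 0.50 (SE 0.07, adjusted p = 0.000334) and Sdhd by 0.54 (SE 0.07, adjusted p = 0.000234). The anchors kept their call when close pairs were summed and Sdha and Sdhb lost it, and without WT 3 and 4 the same 2 of 4 were called.

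In complex III, 8 of 9 subunits rose, with a median log2 fold change of 0.70, and the changes ran from 0.18 to 0.94. The 5 small subunits without cofactors, Uqcrh, Uqcr11, Uqcr10, Uqcrq and Uqcrb, changed by 0.70 to 0.94. Cyc1, which is cytochrome c1, and Uqcrfs1, the Rieske iron-sulfur protein, changed by 0.40 (SE 0.07) and 0.41 (SE 0.09), and the core proteins Uqcrc1 and Uqcrc2 by 0.18 and 0.24. This grouping by textbook role was made after the values were seen and carries no test. Uqcrh, the hinge protein at the docking side of cytochrome c (chromosome 4, 116066965 to 116075071), was at 214, 206, 197 and 202.5 CPM in WT and at 397, 324, 354, 450 and 435 CPM in mutants. Uqcr11 was at 89.1, 85.4, 84.4 and 86.9 CPM in WT and at 137, 125, 138, 189 and 190 CPM in mutants. For both, the WT libraries were close together, mutants 4 and 5 were the highest and the groups were well apart. Uqcrh rose by 0.94 (SE 0.10, adjusted p = 5.34e-05) and Uqcr11 by 0.85 (SE 0.13, adjusted p = 0.000496).

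The core proteins of complex III, which face the matrix, changed least. Uqcrc1 was at 786, 783, 699 and 709 CPM in WT and at 878, 824, 786, 851 and 872 CPM in mutants, so the lowest mutant lay just above the highest WT library. Its log2 fold change of 0.18 (SE 0.07) did not pass the test (adjusted p = 0.0887). Uqcrc2 was at 306, 304, 261 and 259 CPM in WT and at 352, 315, 313, 350 and 341 CPM in mutants. WT 1 and 2 stood nearer to the mutants than to WT 3 and 4 for both genes. Uqcrc2 rose by 0.24 (SE 0.08, adjusted p = 0.0366), but leaving out WT 3, WT 4, or mutant 1, 4 or 5 ended the call (adjusted p = 0.0566 to 0.117). Summing close pairs left Uqcrh, Uqcr11, Uqcr10 and Uqcrq called higher in complex III.

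Cycs, the somatic cytochrome c (chromosome 6, 50562563 to 50566538), was at 226, 203, 218 and 219 CPM in WT and at 360, 270, 284, 413 and 389 CPM in mutants. The groups did not overlap, and mutants 2 and 3 were the lowest of the mutants. Cycs rose by 0.66 (SE 0.12, adjusted p = 0.00194), and this call was lost when close pairs were summed (adjusted p = 0.0506).

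In complex IV, 13 of 14 tested subunits rose, with a median log2 fold change of 0.71, and 10 were called with close pairs summed. Without Cox6a2 these counts were 12 of 13 and 9. All 10 widely expressed subunits (Cox4i1, Cox5a, Cox5b, Cox6a1, Cox6b1, Cox6c, Cox7a2, Cox7b, Cox7c and Cox8a) rose, by 0.51 for Cox5a to 1.01 for Cox7c. These subunits surround the catalytic core, which mitochondrial DNA encodes. Cox6c went from 187 ± 5.75 CPM (SD, n = 4) to 375 ± 80.6 CPM (SD, n = 5), or 1.01 on the log2 scale (SE 0.14, adjusted p = 0.000341). Cox7c went from 158 ± 12.2 to 319 ± 73.2 CPM, with a log2 fold change of 1.01 (SE 0.15, adjusted p = 0.000657). Cox7a2l is known as a factor for supercomplexes of complexes III and IV. It was at 198, 189, 177 and 175 CPM in WT and at 253, 249, 253, 251 and 263 CPM in mutants. The mutants were nearly level here, with no rise in mutants 4 and 5 over the rest like that of the small subunits. Cox7a2l rose by 0.46 (SE 0.06, adjusted p = 0.000288), a call lost when close pairs were summed (adjusted p = 0.0511).

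Of the tissue isoforms of complex IV, Cox7a1 rose, Cox6a2 had few reads, Cox6b2 did not pass the test, and 4 were not tested. Cox7a1, the form known from heart and skeletal muscle (chromosome 7, 30184144 to 30186078), was at 34.6, 30.3, 23.1 and 21.5 CPM in WT and at 55.0, 45.4, 51.9, 71.6 and 71.5 CPM in mutants. Its widely expressed partner Cox7a2 was at 146, 138, 143 and 144 CPM in WT and at 259, 203, 200, 270 and 260 CPM in mutants. Neither gene had overlapping groups, and mutants 4 and 5 were at or near the top in both. Cox7a1 rose by 1.10 (SE 0.18, adjusted p = 0.000915) and Cox7a2 by 0.74 (SE 0.10, adjusted p = 0.000278). The summed level of 10 smooth muscle markers was 784.5, 761.7, 495.8 and 517.1 CPM in WT 1 to 4 and 1251, 1065, 1029, 451.1 and 451.7 CPM in mutants 1 to 5. Among WT libraries Cox7a1 and this sum were both highest in WT 1 and 2, and among mutants Cox7a1 was highest in mutants 4 and 5, where the sum was lowest. The part of smooth muscle in the level of Cox7a1 was not tested. The striated muscle markers were low, and the list of 13 summed to 6.1 to 13.9 CPM per library. Mb had 2 reads in all libraries and Myh6 had 3. Acta1 had a mean of 3.10 CPM in WT and 1.86 CPM in mutants, and Tnnt2 of 1.94 and 3.92 CPM.

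Cox6a2, the other muscle form, was at 0.244, 0, 0.123 and 0.234 CPM in WT and at 0.700, 0.914, 0.886, 0.766 and 1.67 CPM in mutants. These values stand for 12 WT reads and 85 mutant reads, and mutant 5 stood apart. The log2 fold change was 2.60 (SE 0.54). Since Cox6a2 passed the filter only through its mutant reads, its difference is a description and no p is given. The stricter filter left it out, and its call was lost with close pairs as a random block. Itgad overlaps it on the opposite strand and held 115 WT and 84 mutant reads. Cox6a1, the widely expressed partner of Cox6a2, was at 674, 638, 548 and 540 CPM in WT and at 856, 750, 782, 973 and 978 CPM in mutants, a rise of 0.53 (SE 0.11, adjusted p = 0.00324) that was not called with close pairs summed (adjusted p = 0.0952).

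Cox6b2, a form known from testis, was at 2.85, 3.25, 4.07 and 3.80 CPM in WT and at 2.29, 3.07, 4.67, 2.71 and 3.06 CPM in mutants. The groups overlapped fully, and the log2 fold change of -0.14 (SE 0.23) did not pass the test (adjusted p = 0.676). Its partner Cox6b1 was at 208, 193, 196 and 198 CPM in WT and at 323, 276, 288, 372 and 365 CPM in mutants, with no overlap and a rise of 0.71 (SE 0.10, adjusted p = 0.000283). Cox4i2, the form known from lung, was not tested, with 41 reads in WT and 27 in mutants, against 137773 reads of Cox4i1. Cox4i1 itself was at 714, 675, 585 and 572 CPM in WT and at 1062, 903, 942, 1168 and 1160 CPM in mutants, a rise of 0.72 (SE 0.11, adjusted p = 0.0005). Cox8b had 13 reads and Cox7b2 had 1 read over all libraries, and Cox8c had none, which allows up to 0.125 to 0.186 CPM per library. Their partners Cox8a and Cox7b were abundant in every library. Cox8a was at 353, 325, 320 and 336 CPM in WT and at 510, 474, 501, 555.5 and 562 CPM in mutants, and Cox7b was at 160, 150, 161 and 156 CPM in WT and at 273, 222, 239, 307 and 286 CPM in mutants. Cox8a rose by 0.64 (SE 0.08, adjusted p = 9.65e-05) and Cox7b by 0.76 (SE 0.10, adjusted p = 0.000156).

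In complex V, 15 of 17 tested subunits rose, with a median log2 fold change of 0.57, and 7 were called with close pairs summed. The second row named Atp5o had no reads and was not tested. The change was smallest in the catalytic F1 head and largest among the small membrane subunits, a grouping made after the values were seen. In the head, Atp5b (the catalytic beta subunit), Atp5a1 (alpha), Atp5d (delta) and Atp5c1 (gamma) changed by 0.22 to 0.36, and Atp5e (epsilon) by 0.67 (SE 0.10). The peripheral stalk genes Atp5o, Atp5f1, Atp5j and Atp5h changed by 0.41 to 0.67. The membrane subunits Atp5j2 (f), Atp5mpl, Atp5l (g) and Atp5k (e) changed by 0.80 to 1.05, and all 4 were called with close pairs summed.

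Atp5b (chromosome 10, 128083273 to 128090391), which had the most reads of all members, was at 2228, 2211, 1826 and 1787 CPM in WT and at 2401, 2169, 2241, 2468 and 2462 CPM in mutants. Mutant 2 lay below WT 1 and 2, and the log2 fold change of 0.22 (SE 0.10) did not pass the test (adjusted p = 0.108). Atp5a1 was at 1601 ± 150 CPM (SD, n = 4) in WT and 1936 ± 104 CPM (SD, n = 5) in mutants, with no overlap. It rose by 0.27 (SE 0.09, adjusted p = 0.0358), but leaving out WT 3, WT 4, mutant 4 or mutant 5 ended the call (adjusted p = 0.0552 to 0.112). Atp5s, which encodes a regulatory coupling factor, was at 6.92, 5.91, 5.12 and 7.08 CPM in WT and at 9.30, 6.45, 6.38, 6.83 and 8.20 CPM in mutants. Its groups overlapped, and the log2 fold change was 0.24 (SE 0.16, adjusted p = 0.283).

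Atp5k, a subunit at the dimer interface of the enzyme (chromosome 5, 108433244 to 108434448), was at 33.3, 26.6, 28.6 and 25.0 CPM in WT and at 52.2, 42.0, 51.0, 73.3 and 76.0 CPM in mutants. Atp5l, its neighbour in the membrane, was at 108, 105, 99.4 and 101 CPM in WT and at 185, 151, 165, 234 and 239 CPM in mutants. In both genes mutants 4 and 5 stood above the other mutants, which stood above all WT libraries. Atp5k rose by 1.05 (SE 0.18, adjusted p = 0.00117) and Atp5l by 0.91 (SE 0.13, adjusted p = 0.000438).

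**Figure D2:**
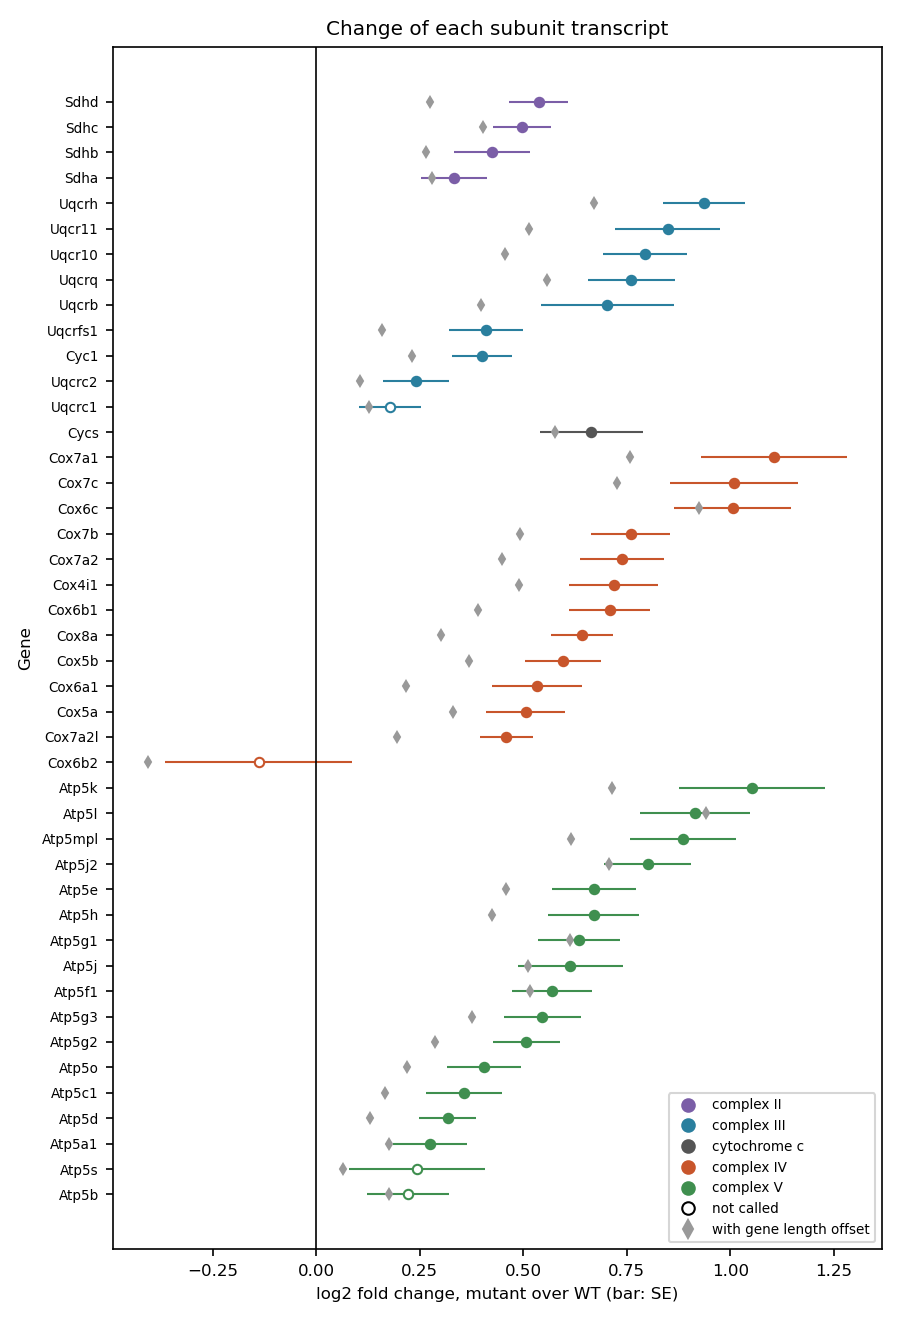
Log2 fold change of each tested subunit except Cox6a2, mutant over WT, with its SE as a bar, coloured by complex; open circles were not called. Grey diamonds give the value with an offset for gene length, which lies to the left for all but Atp5l, and which runs from -0.41 for Cox6b2 to 0.94 for Atp5l.

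Ratios of isoforms within a library, which do not depend on its scaling, were compared for 7 pairs by exact 2-sided permutation over the 126 splits into 4 and 5 libraries. The smallest p this design allows is 0.0079, or 0.0556 after adjustment for a lone pair, so no pair could have passed alone. These p-values treat all 9 libraries as exchangeable, close pairs included. With close pairs summed there are 2 WT and 3 mutant units, whose 10 splits allow no p under 0.1, and all adjusted values were 0.42 or more. The log2 ratio of Cox6a2 to Cox6a1 was -12.13 ± 1.56 (SD, n = 4) in WT and -9.80 ± 0.45 (SD, n = 5) in mutants. No p is given for it, since Cox6a2 entered only through its mutant reads, WT 2 had no read of it, and leaving out 1 library moved the difference from 1.57 to 2.71. That of Cox6b2 to Cox6b1 was -5.83 ± 0.26 in WT and -6.70 ± 0.50 in mutants, a difference of -0.87 (exact p = 0.0317, Benjamini-Hochberg adjusted over the 7 pairs 0.111) and of -0.92 with close pairs summed. That of Cox7a1 to Cox7a2 was -2.41 ± 0.32 in WT and -2.02 ± 0.16 in mutants (exact p = 0.0635, adjusted 0.125), a difference of 0.38, or 0.34 with close pairs summed.

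The 3 genes for the c subunit of complex V encode the same mature protein. Atp5g1 was at 146, 148, 139 and 138 CPM in WT and at 203, 196, 197, 255 and 257 CPM in mutants. Atp5g2 was at 113, 105, 107 and 126 CPM in WT and at 150, 149, 156, 174 and 173 CPM in mutants. Atp5g3 was at 662, 589, 633 and 613.5 CPM in WT and at 888, 806, 831, 1021 and 1012 CPM in mutants. No groups overlapped, and the genes rose by 0.63 (SE 0.10), 0.51 (SE 0.08) and 0.55 (SE 0.09) in that order, at adjusted p between 0.000654 and 0.00107. With close pairs summed the call of Atp5g1 held, and those of Atp5g2 (adjusted p = 0.0522) and Atp5g3 (adjusted p = 0.0731) were lost. Between genotypes, mutant minus WT, their mean log2 ratios differed by 0.12 for Atp5g1 to Atp5g2 (exact p = 0.206, adjusted 0.241), by 0.08 for Atp5g1 to Atp5g3 (exact p = 0.127, adjusted 0.178) and by -0.03 for Atp5g2 to Atp5g3 (exact p = 0.683, adjusted 0.683). The ratio of Cox7a2l to Cox7a2, from 0.37 ± 0.09 in WT to 0.10 ± 0.20 in mutants, gave an exact p of 0.0714 (adjusted 0.125).

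**Figure D3:**
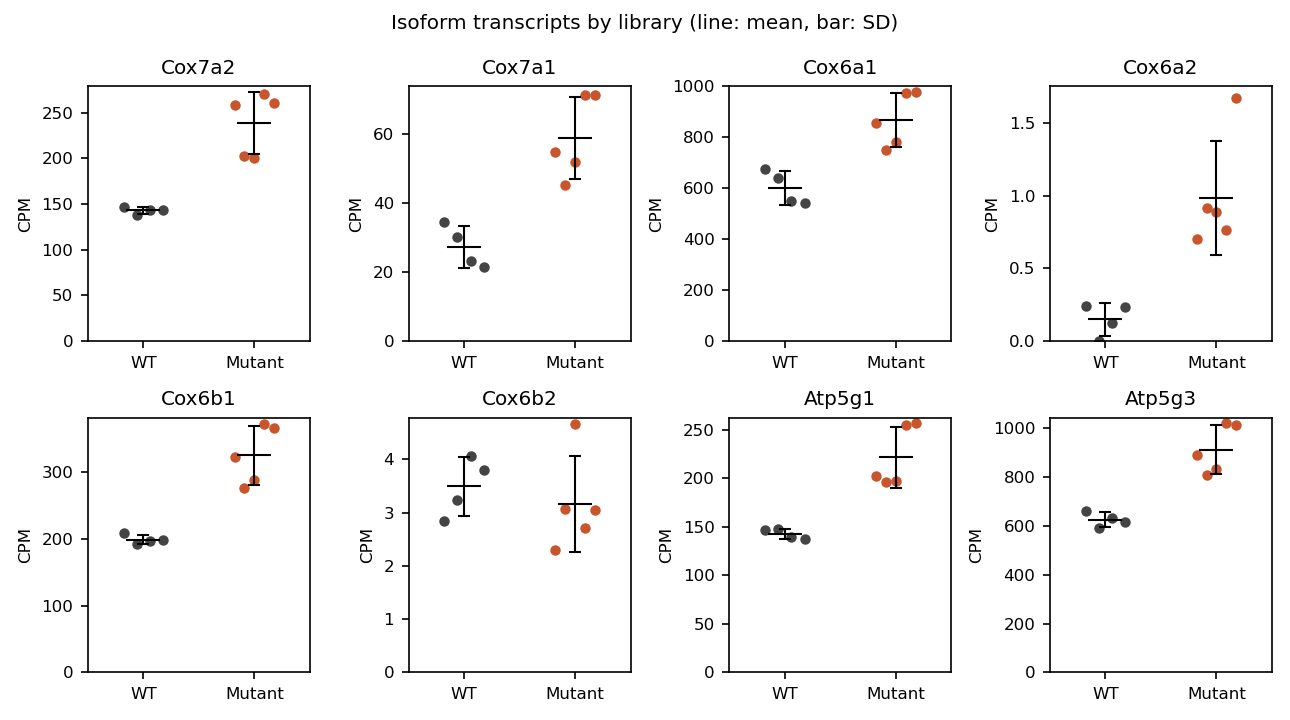
CPM of 8 isoform genes in each library, by genotype, with the mean as a line and the SD as a bar (n = 4 WT, n = 5 mutants), on axes that start at 0. Cox6a2 lies below 2 CPM throughout and Cox6b2 overlaps between genotypes, while the other 6 genes show mutants above WT without overlap.

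Levels per kilobase of the principal transcript (CPM per kb) were used to compare genes with each other. In complex II, Sdhd had the highest WT level, 321 ± 5.15 CPM per kb (SD, n = 4), and Sdhc the lowest, 75.5 ± 2.92 CPM per kb, and the order was the same in mutants. In complex III, Uqcrc1 led in WT, at 450 ± 28.2 CPM per kb, ahead of Uqcrh at 374 ± 12.8. In mutants Uqcrh led, at 716 ± 97.3 CPM per kb (SD, n = 5), ahead of Uqcrc1 at 510 ± 22.9. The WT levels of Uqcrfs1 (284 ± 4.99) and Cyc1 (277 ± 15.7) differed by less than the SD of Cyc1, though by more than that of Uqcrfs1.

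In complex IV, Cox6a1 had the highest WT level, 1051 ± 116 CPM per kb, followed by Cox4i1 at 832 ± 89.9 and Cox8a at 606 ± 26.6. Cox7a1 was the lowest of those above 10 CPM per kb, at 69.7 ± 15.6, Cox6b2 was at 5.97 ± 0.94 and Cox6a2 at 0.22 ± 0.17. In complex V, Atp5b (1051 ± 125) and Atp5g3 (864 ± 42.5) led in WT. In mutants their levels were 1225 ± 70.9 and 1261 ± 139 CPM per kb, a difference within the spread. Atp5g1 was at 30.3 ± 1.03 CPM per kb in WT and Atp5s at 3.91 ± 0.57. The order depends on the length used: with the gene length of the deposited table, which is longer for most members, Uqcrfs1 ranked first in complex III and Atp5a1 in complex V, and Atp5l went from rank 10 to rank 16.

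**Figure D4:**
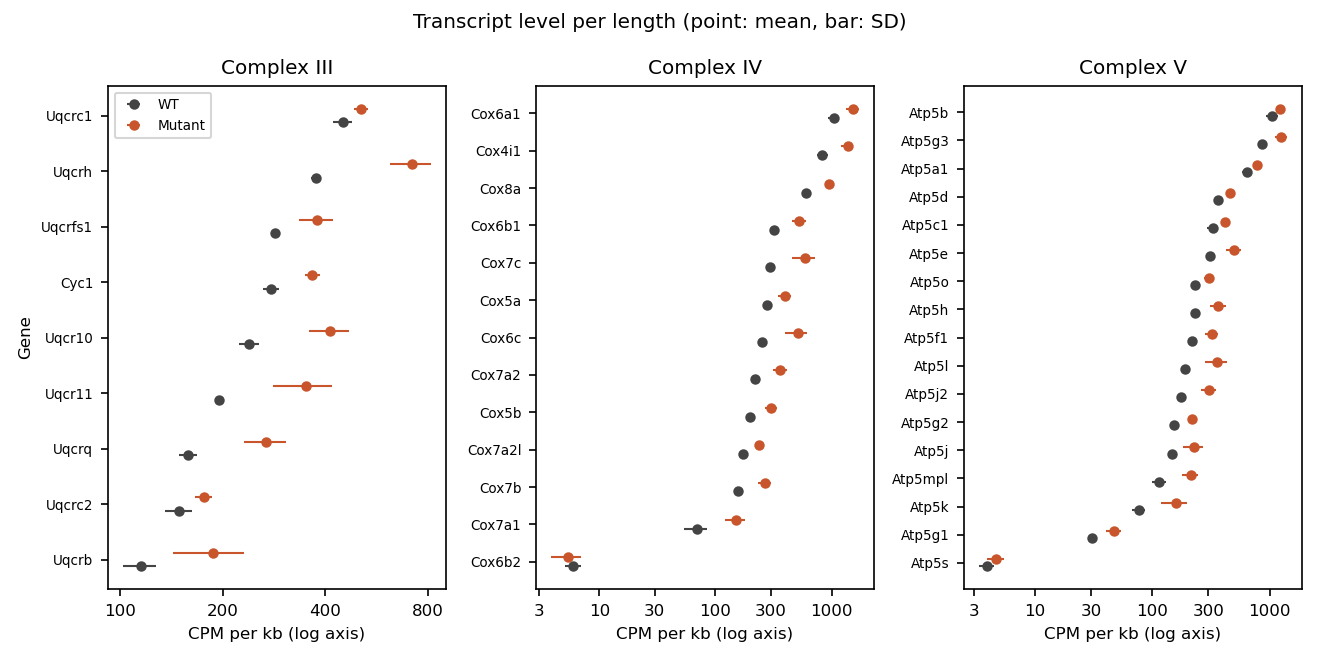
Mean CPM per kb of the principal transcript for tested subunits of complexes III, IV and V above 1 CPM in WT, on log axes, with the SD as a bar (grey for 4 WT, orange for 5 mutants). Genes are ordered by the WT level, and the mutant points of Uqcrh and Cox7a1 lie far to the right of their WT points, while those of Uqcrc1 and Atp5b lie close.

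Mutant libraries were not alike. Mutants 4 and 5 were above mutants 2 and 3 for 44 of 45 tested subunits, with a median log2 difference of 0.35, and for 37 of 45 the highest library was mutant 4 or 5. Between the WT pairs the median difference was 0.08, with WT 1 and 2 above WT 3 and 4 for 34 of 45. Over all tested genes this median was 0.02, and WT 1 and 2 were above for 8251 of 15416. Without mutants 4 and 5 the median log2 fold change of the subunits was 0.48 and 39 were called, and without mutants 2 and 3 it was 0.71 and 43 were called. Without WT 3 and 4, 33 were called.

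Log2 fold changes were larger for short transcripts, among the subunits and among all genes. Across the 42 subunits with a mean of at least 10 CPM, Spearman's rho between principal transcript length and log2 fold change was -0.690. Across all 45 tested subunits it was -0.631 by principal transcript and -0.429 by the gene length of the deposited table. Across 8647 genes of at least 10 CPM, by that gene length, it was -0.341. Subunits are not independent replicates and share these libraries, so the coefficients are a description. Of the 42 subunits, all 16 with principal transcripts under 700 bases were called higher, with a median of 0.77. Of the 26 longer ones 24 were, with a median of 0.50. Among all genes of at least 10 CPM, by gene length, 45.8% of those under 1000 bases and 45.7% from 1000 to 2000 were higher. The shares were 31.1% from 2000 to 4000 and 14.2% of longer ones. Long transcripts with larger changes were Atp5g1, with 4715 bases and a log2 fold change of 0.63, and Cycs, with 3123 bases and 0.66.

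Differences between libraries of the same genotype also varied with length, with a sign that was not always the same. For mutants 4 and 5 over mutants 2 and 3, rho was -0.622 across the subunits by principal transcript and -0.229 across genes by gene length. For WT 1 and 2 over WT 3 and 4 the signs differed, with 0.317 across the subunits and -0.242 across genes. With a smooth offset for gene length in each library, 35 subunits (34 without Cox6a2) were called higher. Of all tested genes, 11.1% were then called higher and 17.8% lower. The median of the subunits was 0.40, and rho was -0.445. The calls of Uqcrc2, Uqcrfs1, Cox6a1, Atp5a1, Atp5c1 and Atp5d were lost. The part of length in the result beyond this offset was not tested.

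**Figure D5:**
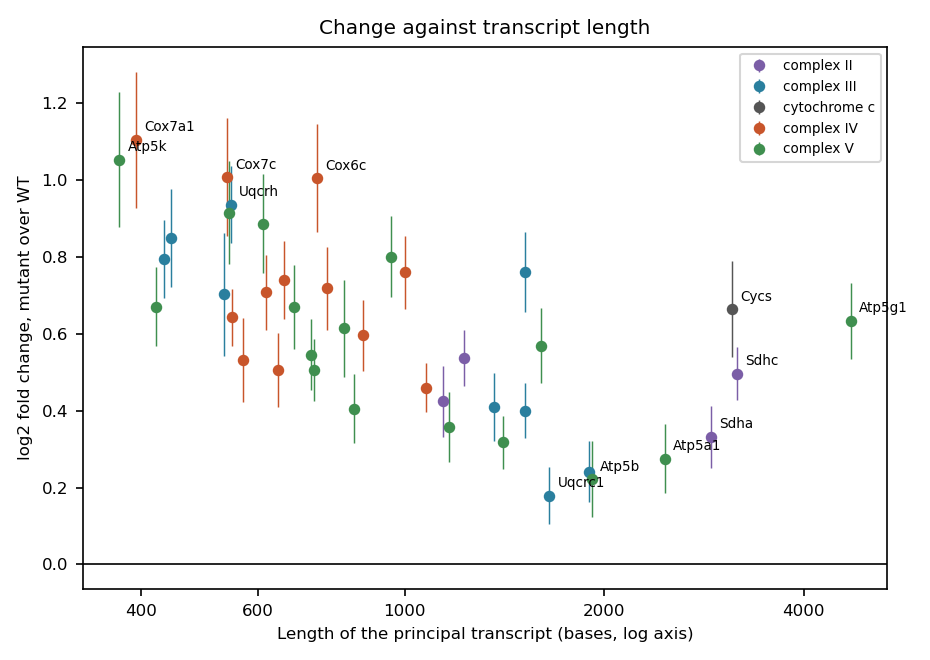
Log2 fold change (mutant over WT, bar: SE) against the length of the principal transcript on a log axis for the 42 subunits with a mean of at least 10 CPM, coloured by complex. The highest value is 1.10 for Cox7a1 and the lowest 0.18 for Uqcrc1, with Cycs, Sdhc and Atp5g1 above the trend on the right.

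Genes that work with these subunits were read from lists chosen with earlier results of these data known. Beside the counts for these lists, 15.4% of all tested genes were higher and 17.1% were lower. With close pairs summed these shares were 2.23% and 6.78%. Of 36 nuclear subunits of complex I, 35 were higher and none was lower, with a median log2 fold change of 0.61, and 16 were called with close pairs summed. Among them Ndufa2 went from 65.7 ± 3.22 to 128 ± 18.3 CPM (log2 fold change 0.96, SE 0.10, adjusted p = 5.59e-05). Of 6 subunits of complexes III to V encoded in mitochondrial DNA, 3 were higher: mt-Co3 by 1.09 (SE 0.15), mt-Co1 by 0.79 (SE 0.16) and mt-Cytb by 0.72 (SE 0.15). Changes of mt-Co2 (1.62, SE 0.60), mt-Atp8 (1.72, SE 0.70) and mt-Atp6 (0.68, SE 0.57) were not called. With close pairs summed, mt-Co3 and mt-Co2 were called higher and the other 4 were not. Reads of mt-Co2 were 14848 in mutant 4 and 1901 in mutant 5, although these libraries are a close pair. Levels were far apart: WT means were 17968 CPM for mt-Co1 and 6356 CPM for mt-Cytb. They were 62.7 CPM for mt-Co3, 117 CPM for mt-Co2, 85.4 CPM for mt-Atp6 and 0.402 CPM for mt-Atp8. Mitochondrially encoded genes took 3.80% to 4.06% of WT reads and 5.39% to 7.44% of mutant reads.

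Of 4 assembly factors for complex II, Sdhaf1 (1.04, SE 0.22) and Sdhaf4 (0.70, SE 0.15) rose, and Sdhaf2 (0.19, SE 0.07) and Sdhaf3 (0.00, SE 0.22) were not called. Of 7 factors for complex III, Uqcc1, Uqcc2, Uqcc3 and Ttc19 rose by 0.35 to 0.47. None of the factors for complexes II and III was called with close pairs summed. Of 25 factors for complex IV, 23 were tested and 11 rose, with a median of 0.29. The smallest p among them belonged to Cox14 (0.74, SE 0.11) and Smim20 (0.48, SE 0.08), the 2 that were also called with close pairs summed. Of 6 genes for complex V, Atpif1, the inhibitor of ATP hydrolysis, rose by 0.81 (SE 0.11), and the assembly genes Fmc1 (0.67, SE 0.11), Tmem242 (0.37, SE 0.06) and Atpaf2 (0.41, SE 0.09) rose as well. Tmem70 (0.22, SE 0.08) and Atpaf1 (0.12, SE 0.12) were not called, and with close pairs summed Atpif1 and Fmc1 were.

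Of 4 other proteins linked to complex IV, Higd2a (0.64, SE 0.06) and Higd1a (0.50, SE 0.15) rose, Higd2a also with close pairs summed. Ndufa4 (0.31, SE 0.24) and Ndufa4l2 (-0.65, SE 0.26) were not called. Of 13 citric acid cycle enzymes 7 rose, with a median of 0.27, among them Dld (0.57, SE 0.08), the 1 enzyme also called with close pairs summed, and Idh3a (0.39, SE 0.07). The porins Vdac1, Vdac2 and Vdac3 rose by 0.40 to 0.71 (Vdac1 and Vdac3 also with close pairs summed), whereas the ADP/ATP carriers Slc25a4 (0.27, SE 0.15) and Slc25a5 (0.07, SE 0.09) and the phosphate carrier Slc25a3 (0.22, SE 0.09) were not called. Of 10 import and chaperone genes 9 rose, with a median of 0.33, including the import receptor Tomm20 (0.40, SE 0.06), but none was called with close pairs summed. Of 12 regulators of mitochondrial biogenesis 2 were called higher (16.7%, near the 15.4% of all tested genes) and none with close pairs summed. They were Tfam, which packages and transcribes mitochondrial DNA (0.42, SE 0.07), and Esrra, an estrogen-related receptor (0.41, SE 0.08). Gabpa (0.17, SE 0.06, adjusted p = 0.0642) and Ppargc1a (0.39, SE 0.15, adjusted p = 0.0655) were not called.

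Markers of the cell types in the tissue moved beside the subunits. Their counts of calls stand against 15.4% of all tested genes higher and 17.1% lower. Enterocyte markers were present in every library, and of 14 listed, 6 were higher and none was lower, with a median log2 fold change of 0.39 and with no call when close pairs were summed. Their summed level was 35419 to 44007 CPM in WT and 45085 to 63080 CPM in mutants. It was 63080 CPM in mutant 1, 45085 and 45574 CPM in mutants 2 and 3 and 51808 and 52021 CPM in mutants 4 and 5. The sum was thus highest in mutant 1, and higher in mutants 4 and 5 than in mutants 2 and 3. Of the 14 markers, 9 were higher in mutants 4 and 5 than in mutants 2 and 3. For the subunits this held for 44 of 45, and for all tested genes for 7616 of 15416. Markers of goblet and Paneth cells were lower for 8 of 8, endothelial markers for 9 of 9 and leukocyte markers for 10 of 11 tested of 13. Their summed levels were 8002 to 8878 against 1038 to 2022 CPM, 258 to 276 against 36.7 to 94.6 CPM and 277 to 296 against 54.8 to 91.8 CPM.

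Plasma cell markers were lower for 4 of 6 (1489 to 1664 against 626 to 1009 CPM), fibroblast markers for 5 of 8 with Fbln1 higher (385 to 478 against 305 to 388 CPM) and pericyte markers for 3 of 7 tested of 8 (150 to 175 against 85.0 to 236 CPM). Of 10 smooth muscle markers none was called (496 to 785 against 451 to 1251 CPM). Of 13 striated muscle markers 5 were tested, with Tnnt2 higher and Acta1 lower, and of 7 adipocyte markers 4 were tested and none was called (132 to 156 against 121 to 198 CPM). Of 7 germ line markers only Sycp3 was tested and it was not called. With acinar and immunoglobulin genes removed before scaling, 41 subunits were called higher, as before. The part of cell composition in the rise of the subunits was not tested.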

How the data were processed

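RNA of 9 duodenum libraries, 4 WT and 5 Pla2g12b mutant by the genotype in the labels, was compared. TRIzol extraction, poly-T selection, random hexamer priming and second strands made with dTTP are given per the labels' protocols, so strand is not marked. The submitters' processing notes name HISAT2 2.0.5, featureCounts 1.5.0-p3 and the builds GRCh37, hg19 and mm39. Not given in the sources used here are the annotation release, the strand setting and the treatment of multiply assigned reads. The deposited values are counts of reads for each gene as the authors made them, not normalized. All 50 member rows were found in GENCODE M21 (GRCm38), 48 with the same start and end, so coordinates are GRCm38 as in the deposited table. Processed pseudogenes named after members (10 rows) held 127 reads in all.

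Mutant and WT counts were compared by edgeR 4.0.16 (quasi-likelihood, R 4.3.3) with TMM factors, filterByExpr and robust dispersion, and with no covariate. A call needed an adjusted p (Benjamini-Hochberg over 15416 tested genes) under 0.05. Adjusted p-values come from edgeR where no other tool is named. CPM are on TMM-scaled library sizes. The floor of 3 reads was 0.125 to 0.186 CPM per library, and floors cover counting error only. Lengths are of the principal transcript in GENCODE M21. The length offset was a robust loess of each library's deviations on log2 gene length. Log2 isoform ratios had 0.5 added to each count. The edgeR fit, the fit with a length offset and voom without quality weights were tested on simulated data. Those data had independent libraries, a common dispersion and no trend with length, unlike the close pairs and lengths here. The other steps were not simulated.

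Members and all lists were chosen with earlier results of these data known. Values in every library are given for the pair of tested subunits with the largest and the pair with the smallest change in each complex, for all members of isoform pairs and for any subunit called lower. Of other lists, up to 4 called genes by smallest p and all genes of lists of up to 6 are named. Myh6, Mb, Sycp3, Fbln1, Tnnt2, Acta1, Gabpa, Itgad, Vps13b and the genes given only as a mean or a change were named after their values were seen. Lists were described by counts and medians, with no test of a list.

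Alternatives were DESeq2 1.42.0, voom of limma 3.58.1 with quality weights, other scaling (relative log expression, or none), other filters (none, or 1 CPM in 4 libraries), dispersion without robust estimation, a block for mouse number, the length offset, and removal of acinar and immunoglobulin genes. Close pairs were also summed, used as a random block or left out, and each library was left out in turn. Mouse numbers did not pair the genotypes.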

Additional observations from a re-analysis of the deposited data

Results flagged for a closer look

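For Sdhc, WT 1 stood at 253.3 CPM, and its distance to the next WT library was 0.977 of the whole range of the 4 WT libraries, above the limit of 0.829 for a group of 4. For Cox6a2, mutant 5 stood at 1.674 CPM, with a distance of 0.780 of the range of the 5 mutants, above the limit of 0.710. Among 90 groups examined (45 subunits in each genotype), 2 gave such a library, and chance gives about 1 in 20 groups.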

How the results depend on the processing

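Over all settings no subunit was called lower. The count of 41 subunits called higher was 39 to 43 under relative log expression factors, library size alone, both other filters, DESeq2, voom with quality weights, no robust dispersion and removal of acinar and immunoglobulin genes, and 39 to 41 when 1 library was left out. Leaving out 1 library gave 8 to 9 for complex III with cytochrome c, 14 to 15 for complex V, and 1778 to 2280 higher and 2271 to 2609 lower over all genes. With close pairs summed, 23 subunits were called higher (2 in complex II, 4 in complex III with cytochrome c and 7 in complex V), with 385 genes higher and 1173 lower overall. That setting compares 2 WT with 3 mutant units. With close pairs as a random block, 1172 genes were higher and 1644 lower, and 39 subunits were higher. The calls of Uqcrc2 and Cox6a2 were lost there. Without WT 3 and 4, 1451 genes were higher, 33 subunits were and 2 in complex II were, and the log2 fold change of Cox6b2 reversed to 0.051 (adjusted p = 0.926). The Cox6b2 change has no call in any setting (adjusted p from 0.23 to 0.926). Leaving out 1 library moved the difference of the Atp5g2 to Atp5g3 log2 ratio between -0.064 and 0.030, reversed without WT 4, also without a call. The cause was not tested. With the mouse number as a block, 39 subunits were called higher, and Uqcrc2 and Atp5a1 lost their calls. Deviations of same-numbered libraries had r of 0.036, 0.136, -0.135 and 0.117. Those of differently numbered libraries had r from -0.149 to 0.148, so the numbers do not pair the libraries. Depth limits Cox6a2, Cox4i2, Cox8b, Cox7b2 and Cox8c.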
